A study of Mus musculus with 33 samples.

Results

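A set of 9 genes that mark mature T cells or direct their traffic between blood and lymphoid organs were followed in mice drinking nicotinamide (NAM), a form of vitamin B3. They were Cd3e, Cd4, Cd8a, Cd8b1, Tcf7, Lef1, Il7r, S1pr1 and Klf2. A row of the deposited table was taken when 1 of its listed symbols was one of these names, which gave 9 rows, 1 per gene, of 56414 rows in all. The genes were picked by name, not by their values, although earlier results of these data were known.

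The animals were C57Bl/6 mice without tumours, either untreated or drinking water with 0.5% NAM over 1, 3 or 14 days. By the labels the NAM was renewed weekly, whereas the general methods of the study give more frequent changes of the bottles. The study used female mice, and its RNA sequencing came from a single experiment. Neither sex, age nor any pooling of animals is given per sample in the labels. Messenger RNA was sequenced in 33 libraries, namely 20 labelled spleen, 5 for each of the 4 groups, and 13 labelled lymph node. Of the latter, 3 were untreated, 2 had NAM for 1 day, and the groups of 3 and 14 days had 4 each. Nothing in the labels says whether an animal gave both organs, and no further allele or agent is named for any group.

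T cells carry the T cell receptor, whose signal passes through the CD3 chains, and are divided into helper cells with the coreceptor CD4 and cytotoxic cells with the coreceptor CD8. The transcription factors TCF1 and LEF1 bind the same DNA element and keep naive and memory T cells in their lineage, and the interleukin 7 receptor carries their survival signal. KLF2 is a transcription factor of resting T cells that switches on the gene of S1PR1, the receptor through which lymphocytes follow sphingosine 1-phosphate out of lymphoid organs. Several of the 9 genes are read in other cells too, KLF2 and S1PR1 in endothelial and B cells, CD4 in mouse dendritic cells and macrophages at lower levels, and CD8A in a subset of dendritic cells.

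The tissue labels were first held against marker genes. Glycam1, which codes for a mucin made by the high endothelial venules of lymph nodes, ran from 108167 to 214211 normalised read counts in the libraries labelled spleen and from 1.59 to 12.4 in those labelled lymph node. Spic, the transcription factor of splenic red pulp macrophages, ran from 774 to 1295 and from 6117 to 10491. Both genes therefore went against the labels, and the 2 sets of libraries are called here only by their label. T cell markers were present in both, with the 7 measured genes of that list summing to 42483 to 81809 under the spleen label and to 35879 to 44980.1 under the lymph node label. Libraries held 18325061 to 54830743 whole reads under the spleen label and 30424968 to 46733974 under the lymph node label. A normalised read count is the number of reads of a gene divided by a factor for the library's depth, and log2 changes were tested on log2(normalised count + 1). In whole tissue, fewer cells of a type and less RNA per cell cannot be told apart.

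The libraries that stood apart were these 3. Under the spleen label, replicate 2 at 1 day had the lowest count of its group in all 9 genes, the highest score on the first principal component of that label, at 74.3 against -62.5 to 34.7 in the other libraries, and the highest sum of adipocyte markers, at 455409. Replicate 1 at 3 days had a score of -17.4 on the second component, whereas the other 4 libraries of its group had 11.1 to 21.6, the 1-day libraries 14.5 to 32.9 and the untreated libraries -38.0 to -13.2. Under the lymph node label, replicate 1 at 1 day had pancreatic acinar markers summing to 98234, against 2.24 in the other 1-day library. Among the untreated libraries labelled spleen, replicate 5 was likewise lowest in all 9 genes, and replicate 1 was highest in 8 and lowest on the first component of that label, at -62.5. The 1-day calls of Klf2, Lef1 and Tcf7 held without either. The changes of the called genes among the 9 are also given without the libraries that stood apart. So are the counts of the gene lists under the spleen label.

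The first question was which of the 9 genes changed under the spleen label, and when. After 1 day of NAM, the transcription factor genes Klf2, Lef1 and Tcf7 fell, to between 0.518 and 0.646 of the untreated level, while the genes that define the lineage and its subsets, Cd3e, Cd4, Cd8a and Cd8b1, gave changes of at most 0.16 in size on the log2 scale and did not pass the test. Of the 9 genes, 3 were called, all lower, beside 16.6% of all 18243 genes tested called in either direction and 8.05% called lower. A test for any difference among the 4 groups, from the same fit, called 3 of 9, namely Klf2 (adjusted p = 0.00194), Lef1 (adjusted p = 0.00416) and Tcf7 (adjusted p = 0.0271), beside 12.4% of all genes.

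Klf2 lies on chromosome 8 from 72319033 to 72321654 of the mm10 assembly, on the plus strand. Its normalised read counts were 9523, 7243, 8876, 7742 and 6445 in the untreated libraries labelled spleen and 4051, 2885, 4480.0, 3426 and 6352 after 1 day. They were 5822, 4027, 3698, 5505 and 4828 after 3 days and 8383, 5746, 8250.1, 7198 and 8672 after 14 days. All libraries of 1 and 3 days were below all untreated ones, the closest pair at 1 day being 6352 and 6445, and at 14 days the ranges overlapped. The log2 change was -0.95 ± 0.18 (SE) at 1 day (limma adjusted p = 0.0018), -0.75 ± 0.18 at 3 days (adjusted p = 0.0224) and -0.06 ± 0.18 at 14 days (adjusted p = 1). Without replicate 2 at 1 day, the 1-day change of Klf2 was -0.82 (adjusted p = 0.00506).

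Lef1, which encodes the partner of TCF1, lies on chromosome 3 from 131110297 to 131224357, on the plus strand. Its counts were 6038, 4390.3, 4922, 4791 and 4020.3 in untreated libraries and 2796, 1809, 3072, 2594 and 3542 after 1 day. After 3 days they were 4391, 3010.1, 2886, 3558 and 2882, and after 14 days 5024, 3688, 4570.4, 3979 and 4468. The 1-day libraries all lay below the untreated ones, whereas at 3 days replicate 1 lay within the untreated range and the other 4 below it. The log2 change of Lef1 was -0.83 ± 0.15 (SE) at 1 day (limma adjusted p = 0.00176) and -0.54 ± 0.15 at 3 days (adjusted p = 0.0466). At 14 days it was -0.15 ± 0.15 (adjusted p = 1). Without replicate 2 at 1 day, Lef1 gave -0.68 (adjusted p = 0.00366).

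Tcf7, the gene of TCF1, lies on chromosome 11 from 52252283 to 52283020, on the minus strand. Untreated libraries held 10129, 7673, 8418, 8440.3 and 7464 normalised counts, and those of 1 day 5849, 3327, 6129, 5382 and 7218. Those of 3 days held 7782, 5775, 5165, 6264 and 5031, and those of 14 days 9349.9, 6579.8, 8252, 7018 and 7554. Again the 1-day libraries were all below the untreated ones, and at 3 days only replicate 1 reached the untreated range. The log2 change of Tcf7 was -0.63 ± 0.16 (SE) at 1 day (limma adjusted p = 0.0123), -0.50 ± 0.16 at 3 days (adjusted p = 0.0734) and -0.12 ± 0.16 at 14 days (adjusted p = 1). Without replicate 2 at 1 day the value was -0.46 (adjusted p = 0.0245).

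**Figure D1:**
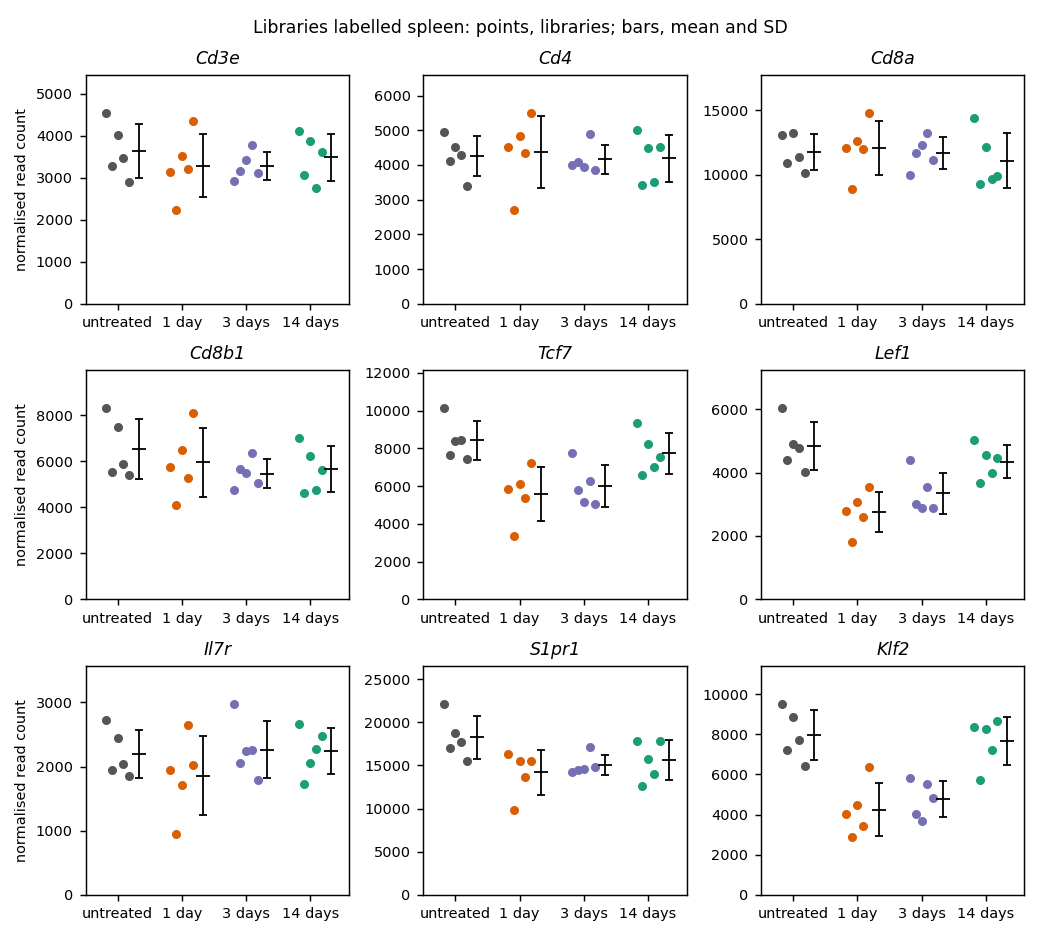
Normalised read counts of the 9 genes in the libraries labelled spleen, on a linear axis from 0, by group (untreated and 1, 3 or 14 days of NAM, 5 libraries each). Points are libraries and bars the mean with SD, and Klf2, Lef1 and Tcf7 lie below the untreated libraries at 1 day in all 5 libraries, with means of 4239, 2763 and 5581 against 7966, 4832 and 8425.

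Promoter sequences of Klf2 and Lef1 are shown because these genes had the largest changes of the 9 at 1 day under the spleen label and moved in the same direction in the same libraries. Of the 9 genes, 6 had an entry in a RefSeq table of promoters (GRCm38.p6), the exceptions being Cd4, Cd8b1 and S1pr1, and where a gene had several start sites the one nearest the start of its row was used. Each sequence holds the 200 bases from 250 to 51 bases before the start, 5′ to 3′ on the strand of the gene. Klf2 is from chr8:72318812-72319011 on the plus strand. Lef1 is from chr3:131110047-131110246 on the plus strand, for 1 of 4 starts in the table. Capitals mark the core CACCC, or GGGTG on the other strand, bound by factors of the KLF family.
Klf2: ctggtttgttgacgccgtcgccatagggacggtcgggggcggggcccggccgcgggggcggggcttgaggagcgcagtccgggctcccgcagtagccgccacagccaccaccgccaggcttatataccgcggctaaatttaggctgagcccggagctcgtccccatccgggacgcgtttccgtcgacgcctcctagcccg
Lef1: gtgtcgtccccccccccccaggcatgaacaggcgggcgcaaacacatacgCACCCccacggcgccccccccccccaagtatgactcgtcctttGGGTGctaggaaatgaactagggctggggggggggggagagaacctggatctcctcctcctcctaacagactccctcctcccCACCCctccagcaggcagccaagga
The KLF core was found 0 times for Klf2 and 3 times for Lef1, and 44.4% of all 32851 promoter windows of 200 bases in the table held it at least once. The forkhead core TGTTTAC, or GTAAACA, was not in either window and was in 2.58% of all windows. The core of the TCF and LEF factors, CTTTGA or TCAAAG, was likewise not among these letters and was in 11.8% of all windows. All were searched on both strands, and a match of letters describes the window only. The window of Tcf7, for 1 of 2 starts in the table, is not shown, because it held an ATG whose reading frame met no stop codon before the annotated start, so that it may not be promoter sequence alone.

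S1pr1, on chromosome 3 from 115710433 to 115715055 on the minus strand, was the remaining gene of egress. Its counts were 22142, 17018, 18803, 17724 and 15494 in untreated libraries labelled spleen and 16334, 9819, 15497, 13689 and 15557 after 1 day. The ranges overlapped, with 3 of the 1-day libraries between the lowest and the highest untreated library. The log2 change of S1pr1 was -0.38 ± 0.13 (SE) at 1 day and did not pass (limma adjusted p = 0.0521), with adjusted p from 0.00293 to 0.143 under 11 other settings, 4 of which called it lower. Leaving out replicate 2 at 1 day gave -0.25 (adjusted p = 0.138). At 3 days, with counts of 14291, 14484, 14549, 17156 and 14796, it was -0.27 ± 0.13 (adjusted p = 0.228), and at 14 days, with counts of 12573 to 17881, -0.23 ± 0.13 (adjusted p = 1).

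Il7r, on chromosome 15 from 9506161 to 9529876 on the minus strand, encodes the alpha chain of the interleukin 7 receptor. Under the spleen label its counts were 2732, 1947, 2447, 2033 and 1852 untreated and 1948, 949, 1715, 2653 and 2027 after 1 day. The groups overlapped, since 2 of the 1-day libraries lay below all untreated ones and the other 3 within their range. The log2 change of Il7r was -0.30 ± 0.20 (SE) at 1 day (limma adjusted p = 0.318), 0.04 ± 0.20 at 3 days (adjusted p = 0.942) and 0.02 ± 0.20 at 14 days (adjusted p = 1). Without replicate 2 at 1 day it was -0.08 (adjusted p = 0.774).

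The chain and coreceptor genes kept overlapping ranges between every NAM group and the untreated group. Cd3e, on chromosome 9 from 44998743 to 45009594, encodes the epsilon chain of CD3 and ran from 2890.1 to 4543 in untreated libraries. Its NAM libraries held 2233 to 4347 counts after 1 day, 2909.9 to 3782 after 3 days and 2759 to 4115 after 14 days. Cd4, on chromosome 6 from 124864693 to 124888209, ran from 3392 to 4955 untreated and from 2694 to 5506, 3866 to 4901 and 3425 to 5000.0 at the successive durations. The 2 CD8 genes are neighbours on chromosome 6. Cd8a, from 71373427 to 71379173, encodes the alpha chain, and its counts ran from 10111 to 13251 untreated and from 8902 to 14789 at 1 day. Cd8b1, from 71322787 to 71337484, encodes the beta chain of the CD8 heterodimer of conventional cytotoxic T cells, and its counts ran from 5387 to 8296 untreated and from 4073 to 8111 at 1 day. The log2 changes of these 4 genes at 1 day were -0.16 ± 0.15 (SE) for Cd3e, 0.02 ± 0.15 for Cd4, 0.03 ± 0.13 for Cd8a and -0.15 ± 0.16 for Cd8b1. At 3 and 14 days they lay between -0.24 and -0.01, with adjusted p of at least 0.408. With a score of T cell markers (without Cd3e) as a covariate, chosen after seeing the data, Cd8b1 was called lower at 3 days (limma adjusted p = 0.0264).

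Set against Cd3e within each library, the 3 factors were also lower at 1 day. The log2 ratio of Lef1 to Cd3e was 0.41 ± 0.07 (SD, n = 5) untreated and -0.25 ± 0.07 at 1 day, and the ratio of Klf2 to Cd3e was 1.14 ± 0.04 and 0.35 ± 0.16. For Tcf7 it was 1.22 ± 0.11 untreated and 0.75 ± 0.12 at 1 day. For all 3 the highest 1-day ratio lay below the lowest untreated ratio, at -0.17 against 0.30 for Lef1, 0.55 against 1.07 for Klf2 and 0.90 against 1.07 for Tcf7. For S1pr1 the ratios were 2.33 ± 0.08 and 2.12 ± 0.19, with overlapping ranges, and for Il7r -0.72 ± 0.05 and -0.87 ± 0.39. At 3 days they were 0.02 ± 0.33 for Lef1, 0.53 ± 0.33 for Klf2 and 0.86 ± 0.33 for Tcf7. The 3-day ranges reached 0.59 for Lef1 and 1.42 for Tcf7, above the highest untreated ratios of 0.48 and 1.37, and 1.00 for Klf2, below its lowest untreated ratio. At 14 days the ratios were 0.33 ± 0.11 for Lef1, 1.14 ± 0.19 for Klf2 and 1.16 ± 0.11 for Tcf7. With replicate 2 at 1 day left out, the 1-day ratios were -0.24 ± 0.07 (SD, n = 4) for Lef1, 0.34 ± 0.18 for Klf2 and 0.79 ± 0.07 for Tcf7, and 2.11 ± 0.22 for S1pr1 and -0.77 ± 0.38 for Il7r. These ratios concern genes of unequal length, so they compare groups, not genes, and they were not tested.

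At 3 days, 2 of 9 genes were called, Klf2 and Lef1, beside 5.55% of all genes in either direction and 2.74% called lower. Without replicate 1 at 3 days, Tcf7 was called too, with -0.60 (adjusted p = 0.0169), beside -0.82 for Klf2 (adjusted p = 0.00506) and -0.64 for Lef1 (adjusted p = 0.00698). In that fit the share of all genes called was 15.2%, and 7.13% were called lower. When each library of the 2 groups was left out in turn, Klf2 was called in 6 of 10 fits (limma adjusted p up to 0.0808). Lef1 was called in 1 of 10 (adjusted p up to 0.132), the fit without replicate 1 at 3 days. The count of called genes ran from 0 to 3 in these fits. It fell to 0 without untreated replicate 1 and without replicate 2, 3 or 5 at 3 days, so the 3-day calls are less certain than those at 1 day, which numbered 3 or 4 in the same exercise. The 3-day libraries were also sequenced more deeply, with 43632016 to 54830743 reads against 18325061 to 31486631 in the untreated ones, and the part of depth in these values was not tested. At 14 days no gene was called, beside 0% of all genes by limma, with 510 of 18243 at an unadjusted p under 0.05, and edgeR and DESeq2 called none of the 9 either.

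Marker genes of other cells were measured beside these changes. At 1 day, 0 of 7 T cell markers were called, and their sum ran from 42483 to 78960.0 against 54939 to 81809 untreated. With a score of T cell markers (without Cd3e) as a covariate, chosen after seeing the data, the 1-day changes were -0.86 for Klf2 (adjusted p = 0.000155), -0.75 for Lef1 (adjusted p = 0.000175) and -0.55 for Tcf7 (adjusted p = 0.00187). B cell markers were called lower in 3 of 10, beside 8.05% of all genes, and their sum ran from 63334 to 88732 at 1 day against 79369 to 99205. Endothelial markers summed to 20106 to 24392 against 21159 to 24783, and immature thymocyte markers to 1912 to 3686 against 1250.1 to 1963. Adipocyte markers summed to 106531 to 455409 at 1 day against 32114 to 177879.7. Of the endothelial, adipocyte and dendritic cell markers 1 of 8 each was called higher, of the natural killer cell markers 1 of 7, of the 4 immature thymocyte markers tested 1, and of 6 macrophage markers 1 was called higher and 1 lower, beside 16.6% of all genes called in either direction. With an adipocyte score as a covariate, the 1-day changes were -0.77 for Klf2 (adjusted p = 0.00257), -0.64 for Lef1 (adjusted p = 0.00192) and -0.43 for Tcf7 (adjusted p = 0.0242). In that fit Cd8a was called higher, at 0.23 (adjusted p = 0.0485), and Cd3e and Cd8b1 stood at 0.07 (adjusted p = 0.675) and 0.11 (adjusted p = 0.39). The part of B cells and of thymocyte markers in the result was not tested. At 3 days, 2 of 8 dendritic cell markers were called lower, and of 6 macrophage markers 1 was called higher and 1 lower, beside 5.55% of all genes. No T cell, B cell, natural killer cell, thymocyte, endothelial or adipocyte marker was called at 3 days, and the part of these cells was not tested.

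**Figure D2:**
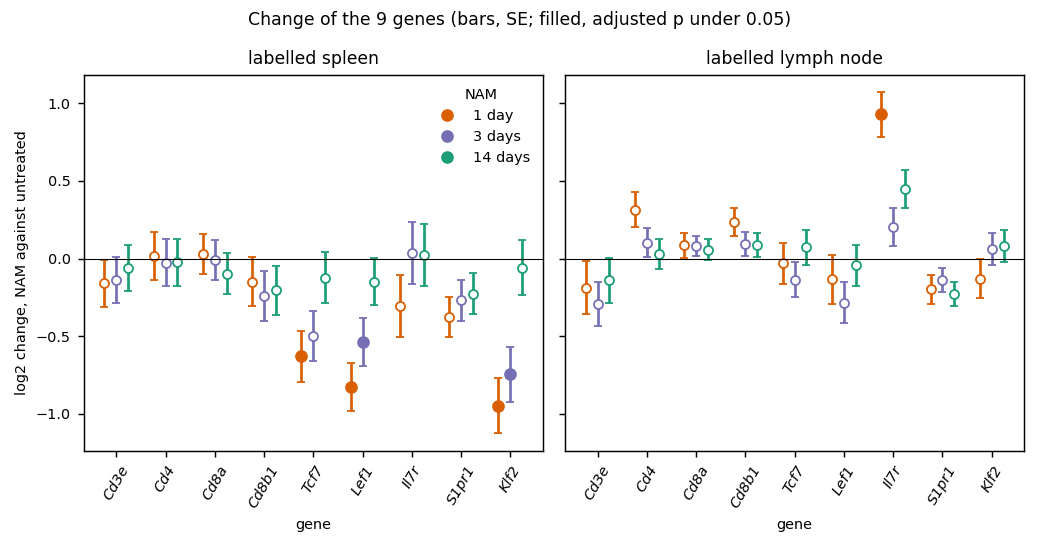
Log2 change of each of the 9 genes after 1, 3 or 14 days of NAM against untreated, with SE bars, for the libraries labelled spleen (left) and lymph node (right). Filled points have an adjusted p under 0.05: Klf2, Lef1 and Tcf7 at 1 day and Klf2 and Lef1 at 3 days under the spleen label, all below 0, and Il7r at 1 day under the lymph node label, at 0.93.

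Under the lymph node label the gene called was Il7r. Its normalised read counts were 1051, 1088 and 1119 in the untreated libraries and 1719.9 and 2484 after 1 day. They were 1339, 1249.7, 1171 and 1243 after 3 days and 1910.1, 1375, 1339 and 1362 after 14 days. Every library of each NAM group lay above all 3 untreated libraries, and at 14 days replicate 1 stood well above the other 3. The share of all genes that separated from untreated in this way is not given, for Il7r or for the other single genes of either label. Cd4, Cd8b1 and Cd3e also separated at 1 day under this label without being called. The log2 change of Il7r was 0.93 ± 0.15 (SE) at 1 day (limma adjusted p = 0.00503), 0.20 ± 0.12 at 3 days (adjusted p = 0.466) and 0.45 ± 0.12 at 14 days (adjusted p = 0.11). The call at 1 day was 1 of 9 genes, beside 1.21% of all 18215 genes and 0.884% called higher, and it rests on 2 libraries. With either left out, the lone 1-day library is assumed to vary like the other groups, which supply the spread, here and wherever a 1-day library of this label is left out. Without replicate 2 at 1 day the change was 0.66 (adjusted p = 0.0873), and without replicate 1, the library with pancreatic markers, 1.19 (adjusted p = 0.00588). The test over all 4 groups called Il7r as well (adjusted p = 0.0101), 1 of 9 beside 1.76% of all genes.

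The log2 ratio of Il7r to Cd3e under this label was -0.35 ± 0.06 (SD, n = 3) untreated. It was 0.54 and 0.98 in the 2 libraries of 1 day and 0.14 ± 0.13 (SD, n = 4) at 3 days. At 14 days it ran from -0.44 to 0.72, so that it overlapped the untreated range of -0.41 to -0.29. The T cell markers summed to 39992 and 44356 at 1 day against 35879 to 37828 untreated, and 0 of 7 were called. At 3 days they summed to 38241 to 44980.1 with 1 of 7 called higher, and at 14 days to 38486 to 41444 with 0 called. With the T cell score as a covariate Il7r gave 1.10 (adjusted p = 0.0309). Macrophage markers summed to 62893 and 71783 at 1 day against 53796 to 54325, with 0 of 6 called, and their part in the Il7r value was not tested.

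The other 8 genes were not called at any duration under the lymph node label. Klf2 had 3024, 3605 and 3279 counts untreated, 3203 and 2835 after 1 day, 2944, 3616, 3205 and 4069.9 after 3 days and 3141, 3245, 3887 and 3719.5 after 14 days. The ranges overlapped at every duration, with log2 changes of -0.13 ± 0.12 (SE), 0.06 ± 0.10 and 0.08 ± 0.10. Lef1 had 881, 1092 and 1066 counts untreated, 919 in both 1-day libraries, 734 to 873 after 3 days and 788 to 1319 after 14 days. Tcf7 ran from 1151 to 1398 untreated and from 1073 to 1571 over the NAM groups. S1pr1 had 17458, 17306 and 16756 counts untreated, 16974 and 13191 after 1 day, 14765 to 16146 after 3 days and 13217 to 15505 after 14 days. The 3- and 14-day libraries lay below the untreated ones in S1pr1, but the log2 changes of -0.14 ± 0.08 and -0.23 ± 0.08 did not pass (limma adjusted p = 0.417 and 0.223).

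None of the chain and coreceptor genes was called there. Cd4 had 2488, 2146 and 2318 counts untreated and 2619.6 and 3156 after 1 day, a log2 change of 0.31 ± 0.11 (SE) that did not pass (limma adjusted p = 0.2) and was 0.45 without replicate 1 and 0.18 without replicate 2 at 1 day. Cd8b1 had 2886, 3097 and 3306 untreated and 3736 and 3558 after 1 day, with 0.24 ± 0.09 (adjusted p = 0.226), and 0.20 and 0.27 in the same order. Cd8a ran from 6603 to 7135 untreated and from 6708 to 7742 over all NAM libraries. Cd3e ran from 1286 to 1445 in untreated libraries, and its 1- and 3-day libraries, at 1183 and 1257 and at 1059 to 1259, lay below them without passing (limma adjusted p = 0.656 and 0.349). At 14 days Cd3e ran from 1065 to 1865, its highest library being replicate 2. At 3 days, 0 of 9 genes were called beside 1.24% of all genes, and at 14 days 0 of 9 beside 0.791%, with 2694 and 2157 of 18215 genes at an unadjusted p under 0.05. At 14 days DESeq2 called Il7r (adjusted p = 0.0206).

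**Figure D3:**
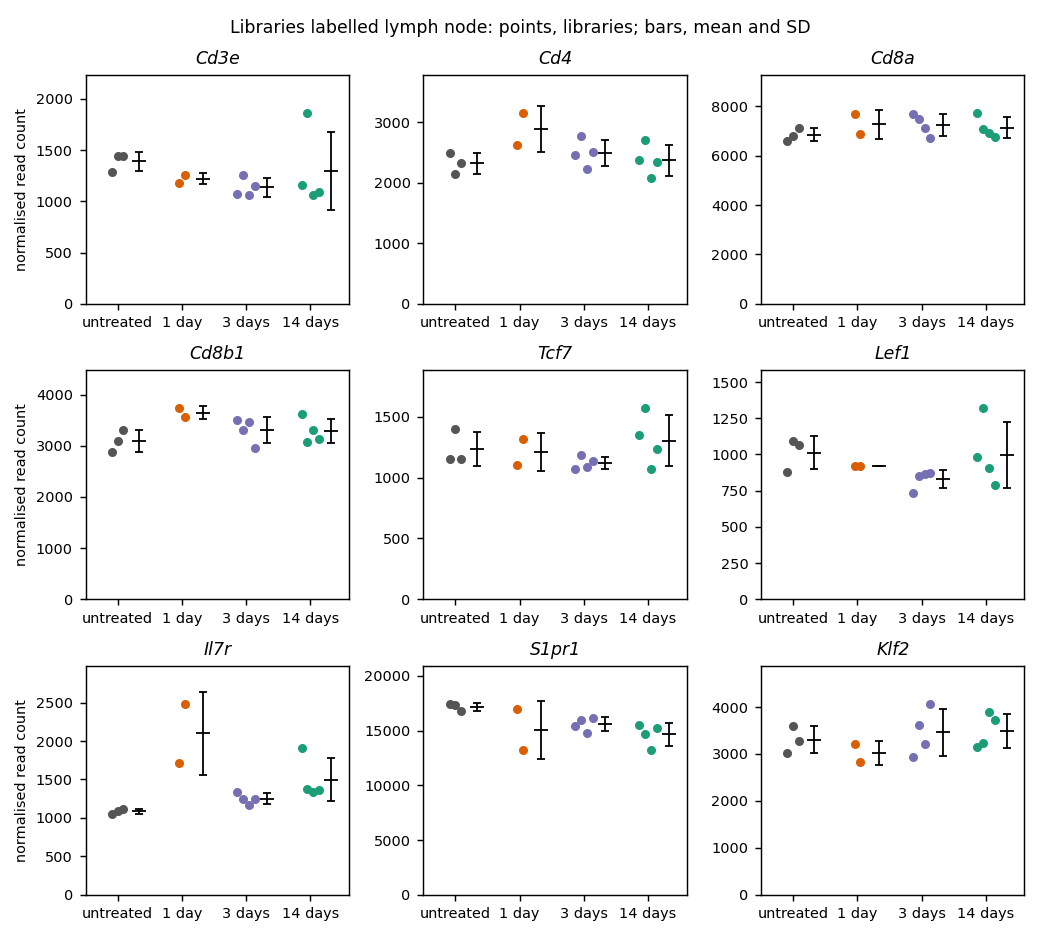
Normalised read counts of the 9 genes in the libraries labelled lymph node, on a linear axis from 0, by group (3 untreated libraries, 2 of 1 day and 4 each of 3 and 14 days). Points are libraries and bars the mean with SD, and Il7r lies between 1051 and 1119 untreated and at 1719.9 and 2484 after 1 day.

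Whether the changes differed between the labels was tested directly in a fit over all 33 libraries. For Il7r at 1 day, the change under the spleen label was -0.30 and that under the lymph node label 0.93, a difference of -1.23 ± 0.31 (SE) (limma adjusted p = 0.0386). It was called beside 1.69% of 17147 genes. With each of the 15 libraries behind it left out in turn, chosen after seeing the data, this difference ran from -1.50 to -0.97 and was no longer called in 7 of the 15 fits. These were the fits without replicate 1 or 3 of the untreated libraries labelled spleen (adjusted p = 0.0677 and 0.0532), without replicate 1, 2 or 3 of those labelled lymph node (adjusted p = 0.0791, 0.0926 and 0.0666), and without replicate 1 or 2 at 1 day under the lymph node label (adjusted p = 0.0692 and 0.239), where the lone 1-day library was assumed to vary like the other groups. Without replicate 2 at 1 day under the spleen label the difference was -1.01 (adjusted p = 0.0309), with a spleen-label change of -0.08. For Klf2, the 1-day changes of -0.95 and -0.13 gave a difference of -0.82 ± 0.27 (adjusted p = 0.104), and the 3-day changes of -0.75 and 0.06 gave -0.81 ± 0.24 (adjusted p = 0.11). For Lef1 at 1 day the difference was -0.69 ± 0.25 (adjusted p = 0.144) and for Tcf7 -0.60 ± 0.25 (adjusted p = 0.213). The fall of the 3 factors was thus called under the spleen label only, without a called difference between the labels in the fit over all libraries. With a library left out, the Klf2 difference was called at 1 day without replicate 5 at 1 day under the spleen label, at -0.98 (adjusted p = 0.0287), and at 3 days without replicate 1 at 3 days under that label, at -0.88 (adjusted p = 0.0319). At 3 days 0 of 9 differences were called beside 0.735% of all genes, and at 14 days 0 of 9 beside 0.14%, with 2239 and 831 genes at an unadjusted p under 0.05.

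The balance of helper and cytotoxic lineage genes was followed as the log2 ratio of Cd4 to Cd8b1 in each library. Under the spleen label it was -0.61 ± 0.15 (SD, n = 5) in untreated libraries, and with NAM -0.44 ± 0.13 after 1 day, -0.39 ± 0.09 after 3 days and -0.43 ± 0.07 after 14 days. The differences of 0.16, 0.22 and 0.18 gave a two-sided exact permutation p of 0.103, 0.0476 and 0.0873, each with an adjusted p of 0.206 over 6 comparisons. Under the lymph node label the ratio was -0.42 ± 0.18 (SD, n = 3) untreated and the differences were 0.08, 0.01 and -0.06, with exact permutation p of 0.6, 0.914 and 0.743. There the smallest p that the test allows is 0.2 at 1 day and 0.0571 at 3 and 14 days, so it could not pass 0.05. The ratio of Cd8a to Cd8b1 under the spleen label was 0.86 ± 0.13 in untreated libraries, and with NAM 1.04 ± 0.13 after 1 day, 1.09 ± 0.05 after 3 days and 0.97 ± 0.09 after 14 days, given without a test.

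The 4 lists of related genes, without the 9 members, show how far the changes reached under the spleen label at 1 day. Of 17 regulators of T cell identity, 8 were called lower and 0 higher, beside 8.05% of all genes called lower, with a median log2 change of -0.27 beside 0.01 over all genes. With replicate 2 at 1 day left out, 7 were called lower, beside 6.42% of all genes. The 3 with the smallest p were Foxp1, -0.76 ± 0.14 (SE, adjusted p = 0.00157), a forkhead factor of naive T cell quiescence whose row also lists Eif4e3, Tox, -0.69 ± 0.14 (adjusted p = 0.00266), a factor of CD4 lineage development, and Foxo1, -0.43 ± 0.09 (adjusted p = 0.00334), the forkhead factor that activates Klf2 and Il7r in T cells. Of 22 trafficking genes, 6 were called lower and 0 higher, with a median of -0.14. With that library left out, 3 were called lower, with a median of -0.01. The 3 with the smallest p were Plxnd1, -0.40 ± 0.07 (adjusted p = 0.00163), a semaphorin receptor of migrating thymocytes, Klf3, -0.59 ± 0.15 (adjusted p = 0.0105), a relative of Klf2, and Sphk2, -0.40 ± 0.10 (adjusted p = 0.0134), a kinase that makes the ligand of S1PR1.

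A further trafficking gene was chosen after its value had been seen, because it encodes a chemokine receptor that guides naive T cells into lymph nodes. This gene, Ccr7, gave 0.06 ± 0.15 (SE, limma adjusted p = 0.824) at 1 day under the spleen label. Of 21 genes of the T cell receptor complex and its signalling, 1 was called lower beside 8.05% of all genes, namely Lcp2, an adaptor, at -0.42 ± 0.11 (adjusted p = 0.0147), with a list median of -0.15. In the fit without replicate 2 at 1 day, 1 was called lower and 1 higher, beside 6.42% and 7.37% of all genes. Of 12 genes of interleukin 7 signalling, 0 were called, with a median of -0.10. The identity and trafficking lists hold genes that B, endothelial and other cells use as well, so their counts are not counts of T cell changes alone.

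At 3 days under the spleen label, 5 of 17 identity regulators were called lower, beside 2.74% of all genes, led by Dusp10, a phosphatase of the stress kinases, at -0.45 ± 0.12 (SE, limma adjusted p = 0.0297), Foxo1 at -0.33 ± 0.09 (adjusted p = 0.0346) and Foxp1 at -0.52 ± 0.14 (adjusted p = 0.0347). Of the trafficking genes 3 were called lower, Sphk2 at -0.41 ± 0.10, Plxnd1 at -0.28 ± 0.07 and Klf3 at -0.52 ± 0.15, and of the receptor and interleukin 7 lists 0. Without replicate 1 at 3 days, 10 identity regulators were called lower and 1 higher, and 4 trafficking genes lower and 1 higher, beside 7.13% and 8.12% of all genes. Of the receptor list, 1 was then called lower and 2 higher. At 14 days 0 genes of the 4 lists were called.

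**Figure D4:**
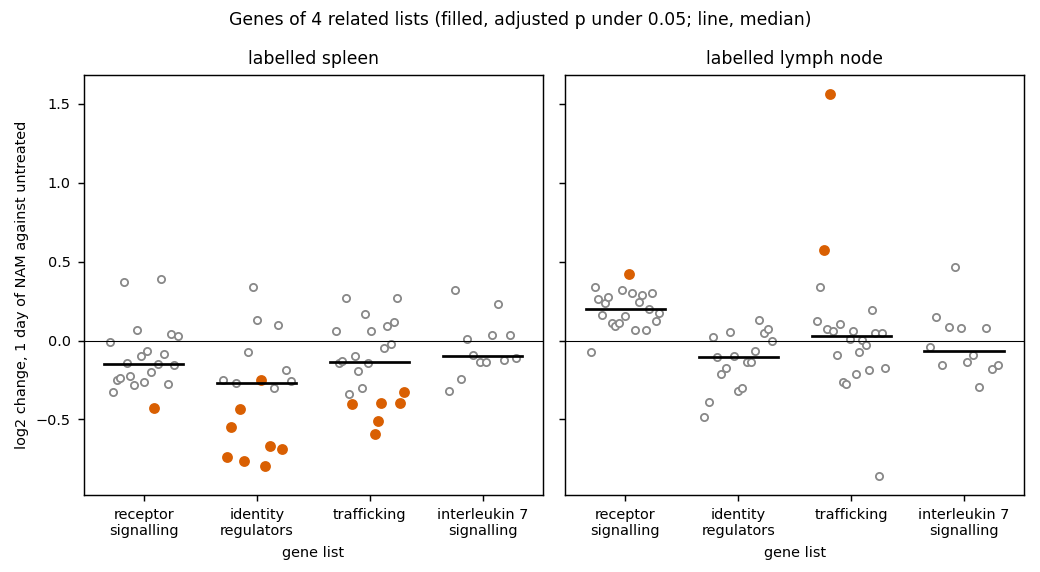
Log2 change at 1 day of NAM against untreated for each gene of 4 related lists (21 receptor and signalling genes, 17 identity regulators, 22 trafficking genes and 12 interleukin 7 signalling genes), under the spleen label (left) and the lymph node label (right). Filled points have an adjusted p under 0.05 and lines are list medians: 8 identity regulators and 6 trafficking genes lie below 0 on the left, and Cxcr4 stands at 1.56 on the right.

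Under the lymph node label the gene that led the lists was Cxcr4, the receptor that holds lymphocytes in tissue towards CXCL12. Its mean normalised count was 5205 untreated and 15172 at 1 day, 8777 at 3 days and 9483 at 14 days. The log2 change of Cxcr4 was 1.56 ± 0.15 (SE, limma adjusted p = 7.12e-05) at 1 day, 0.76 ± 0.13 (adjusted p = 0.00534) at 3 days and 0.88 ± 0.13 (adjusted p = 0.00376) at 14 days. The 1-day value rests on 2 libraries, and with the lone remaining library assumed to vary like the other groups it was 1.65 (adjusted p = 0.00499) without replicate 1, the library with pancreatic markers, and 1.47 (adjusted p = 0.0042) without replicate 2. Cd69, whose product draws S1PR1 from the cell surface, was called higher at 1 day with 0.57 ± 0.11 (adjusted p = 0.0136), but not without replicate 1 (0.52, adjusted p = 0.137) or without replicate 2 (0.62, adjusted p = 0.0666). Of the trafficking list, 2 of 22 genes were called higher at 1 day and 0 lower, beside 0.884% of all genes called higher. The receptor list gave Lat, an adaptor, at 0.42 ± 0.08 (adjusted p = 0.0195) at 1 day, with 0.32 (adjusted p = 0.184) without replicate 1, and Cd247, the zeta chain, at 0.31 ± 0.07 (adjusted p = 0.0358) at 3 days. Myb, a factor of blood progenitors and memory T cells, was the 1 identity regulator called, at -0.43 ± 0.09 (adjusted p = 0.0307) at 3 days and -0.51 ± 0.09 (adjusted p = 0.0147) at 14 days, and Sphk1, the other kinase that makes the ligand of S1PR1, was called at 3 days with -1.42 ± 0.31 (adjusted p = 0.0355). The interleukin 7 list had 0 of 12 called at all 3 durations. The sums of macrophage markers, given above for Il7r, were also higher in both 1-day libraries, with 0 of 6 markers called. The part of these markers in the Cxcr4, Cd69 and Lat values was not tested. Erythroid markers were called lower in 6 of 9 at 3 days and 1 of 9 at 14 days, beside 1.24% and 0.791% of all genes called in either direction. They summed to 320911 to 1388591 and 794060.5 to 1187430.0 against 1453201 to 3060021 untreated, and their part in the values of the listed genes was not tested.

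The untreated libraries of the 2 labels were set side by side after 1 joint scaling of the reads. Tcf7 stood farthest apart, with a mean of 8839.7 and a range of 7784 to 10705 under the spleen label against 1174 and 1098 to 1327 under the lymph node label, a ratio of 7.51 from the difference of the log2 means, as for all ratios here. Lef1 followed with a ratio of 5.23, at 4193 to 6381 against 840.0 to 1036. Cd3e had a ratio of 2.85, Klf2 2.64, Cd8b1 2.29, Il7r 2.21, Cd4 2.01 and Cd8a 1.88. S1pr1 was the exception, at 1.16, with 16159 to 23401 against 15896 to 16648 and overlapping ranges. Ranges did not overlap in 8 of the 9 genes, beside 59.7% of 18657 genes. The order of these ratios is a description, and no test was made.

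**Figure D5:**
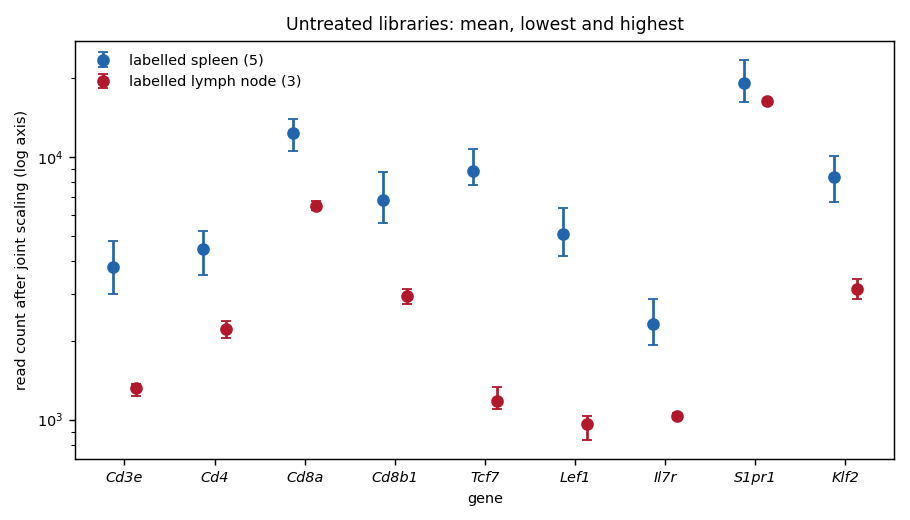
Read counts of the 9 genes in untreated libraries after joint scaling, on a log axis, for 5 libraries labelled spleen and 3 labelled lymph node, as mean with the lowest and highest library. Tcf7 and Lef1 are farthest apart, with ratios of 7.51 and 5.23, and S1pr1 overlaps.

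Within groups, the 9 genes varied together under the spleen label. The Pearson correlation of their deviations from the group means over 20 libraries had a median of 0.78 over 36 pairs, from 0.54 for Cd8a with Il7r to 0.98 for Tcf7 with Lef1. Under the lymph node label the median over 13 libraries was 0.00, from -0.47 for Il7r with Klf2 to 0.86 for Cd3e with Lef1, and Cd8a with Cd8b1 had 0.80. The points share library, depth and tissue sampling. The same median was not taken for other sets of genes, so it cannot be read as particular to these 9. Under the spleen label, untreated replicate 5 and replicate 2 at 1 day were the lowest of their groups in all 9 genes and replicate 2 at 14 days in 8, and untreated replicate 1 and replicate 1 at 14 days were the highest of theirs in 8. Adipocyte markers summed to 130689, 455409 and 190591 in the libraries named as lowest, in that order. In those named as highest they summed to 32114 and 45657. The part of adipocyte content in the correlations was not tested.

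The genes most like Cd3e under the spleen label, by the same deviations over 20 libraries, were Skap1 (0.98), Cd2 (0.98), a row listed as sept-01 (0.97), Il2rg (0.97) and a row that lists several T cell receptor alpha variable genes (0.97). Those most like Cd8b1 were the sept-01 row (0.98), Ankrd13a (0.97), Skap1 (0.97), Cnn2 (0.97) and Nsa2 (0.97). For Klf2 they were Themis2 (0.94), Gpsm3 (0.92), Armc7 (0.92), Hmga1 (0.92) and Irf8 (0.91), and for S1pr1 Fam107b (0.96), Gpr18 (0.94), Twistnb (0.94), Gng2 (0.93) and Me2 (0.92). Under the lymph node label, over 13 libraries, Tox (0.94), Cd6 (0.91), Trp53inp2 (0.91), Kmt2a (0.90) and Zfp831 (0.90) were most like Cd3e, and Crtam (0.93), Mtg1 (0.91), Cbr4 (0.90), Zfp493 (0.88) and Them4 (0.88) most like Cd8b1. For Klf2 they were Chchd10 (0.92), Jund (0.92), Arl8a (0.91), Uchl1 (0.90) and Brpf1 (0.88), and for S1pr1 Lman1l (0.94), Edn1 (0.91), Trim41 (0.91), Ccr10 (0.90) and Acap3 (0.89).

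Reads of neighbouring transcripts can be shared where strand is not used in the counting. In the GENCODE annotation an antisense gene with overlapping exons lies on Cd3e (Gm48719) and on Lef1 (Gm43352), and Tcf7 shares its span, but no exon, with 2 non-coding genes. Cd4, Cd8a, Cd8b1, Il7r, S1pr1 and Klf2 overlapped no other annotated gene.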

How the data were processed

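RNA of organs labelled spleen and lymph node was sequenced as paired-end messenger RNA libraries. Per the submitters' processing notes and the study's methods, reads were aligned to mm10 with STAR 2.4.0, counted per gene of the sequencing service's annotation and normalised with DESeq2, strand use not being given in the sources used here. The deposited table holds a signal per gene and library, the authors' read counts divided by size factors, in 56414 rows of which 30657 have no symbol. Groups came from the sample titles.

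Each value was a whole multiple of its library's step for 100% of values (tolerance 0.01 reads), which returned the whole reads. The 2 labels had been scaled separately, so tests were made within a label. Rows with a mean normalised count of at least 10 within a label were tested as log2(value + 1) with limma 3.58.1 (R 4.3.3), with an intensity trend and the 4 groups in 1 fit, two-sided, Benjamini-Hochberg over all genes, threshold 0.05. On this scale a change of a low gene is understated. Differences between labels used 1 fit over 33 libraries. The Cd4 to Cd8b1 ratio was tested by exact permutation (scipy 1.17.1). Of 56 replicate pairs, 0 were identical. Nothing says that replicates were separate experiments, so p-values measure the spread between these libraries.

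Checked on simulated reads with 200 genes changed by known folds per comparison, the test recovered 92.0% to 94.0% of them for the spleen label over 18196 to 18211 genes and 77.3% to 91.0% for the lymph node label over 18160 to 18175, with false calls of 4.19% to 7% and 3.72% to 9.47%.

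As alternatives, the pseudocount was set to 0.1 or 5, the filter was dropped, values were quantile normalised, libraries were weighted, only the groups compared were fitted, and replicate number was a block. Recovered reads were tested with DESeq2 1.42.0 and edgeR 4.0.16. Genes were also called by a fold of 1.5 or more with a raw p of up to 0.05, an adipocyte or T cell score was made a covariate, the latter after seeing the data, and each library was left out. The members, lists and tests were chosen with earlier results of these data known. Named by rule were all 9 members, up to 3 called genes of smallest p per list and comparison, and the 5 genes most correlated with Cd3e, Cd8b1, Klf2 and S1pr1, and Ccr7 was added after its value was seen. Gene lists and ratios to Cd3e without libraries that stood apart, and differences between labels with each library left out, were also added after seeing the data. For a symbol with several rows, the row of highest mean was used. Trac, Trbc1, Trbc2, Klra8 and Ahsp were not found in the table under these symbols.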

Additional observations from a re-analysis of the deposited data

Results flagged for a closer look

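Dixon's test was run over 54 sets of 4 or 5 libraries, 9 genes in each group of that size, and marked 5 of them, where chance marks about 1 set in 20. Among the 14-day libraries labelled lymph node, Cd3e in replicate 2 stood at 1865 normalised counts, with the other 3 libraries at 1065 to 1160.3. In the same group Il7r in replicate 1 stood at 1910.1, with the others at 1339 to 1375, and without it the 14-day change was 0.32 (adjusted p = 0.235). Among the 3-day libraries of that label, Lef1 in replicate 1 stood at 734, below the others at 853 to 873. Under the spleen label, Cd4 and S1pr1 in replicate 4 at 3 days stood at 4901 and 17156, above the others at 3866 to 4091 and 14291 to 14796.

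The change of Il7r at 1 day differed between the labels by the test of the difference itself, with a spleen-label change minus lymph-node-label change of -1.23 on the log2 scale. The call was lost in 7 of the 15 fits with a library left out.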

How the results depend on the processing

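The 1-day fall of Klf2, Lef1 and Tcf7 under the spleen label passed in each of 11 other settings and with each library left out, and no called value changed sign. At 3 days under that label, the count of called genes was 1 without the filter, with edgeR, when the fit held only the 2 groups and when a raw p was joined with a fold of at least 1.5, 5 with the T cell score as covariate, and 0 to 3 with each library left out in turn. With the T cell score, Cd8b1 (limma adjusted p = 0.0264) and S1pr1 (adjusted p = 0.0368) were called lower besides Klf2, Lef1 and Tcf7. The share of all genes called in that fit is not given. At 1 day under the lymph node label the count with a library left out ran from 0 to 1, being 0 without replicate 2 at 1 day. At 14 days under that label it was 1, Il7r, with library weights, DESeq2 or the adipocyte score, and the difference between the labels at 3 days gave 1 with library weights. With a library left out, the count of called differences between the labels ran from 0 to 2 at 1 day and from 0 to 1 at 3 days. With a library left out, the Cd4 to Cd8b1 difference under the lymph node label ran from -0.094 to 0.25 for 1 day, from -0.048 to 0.11 for 3 days and from -0.15 to 0.044 for 14 days. The causes of these shifts were not tested.

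With the replicate number as a block, 4 genes were called at 1 day and 3 at 3 days under the spleen label, S1pr1 and Tcf7 being added. Deviations of same-numbered libraries correlated between -0.50 and 0.47 under the spleen label and between -0.11 and 0.08 under the lymph node label. Those of differently numbered libraries correlated between -0.56 and 0.55 and between -0.10 and 0.11, so the numbers gave no sign of pairing within a label. With ranges this wide the check cannot exclude a shared factor, and it did not compare libraries across the labels.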
